A study of Mus musculus with 8 samples.

Results

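The insulin-like growth factor (IGF) ligands, receptors and binding proteins were followed in smooth muscle cells of the mouse aorta, which give the artery its tone, by taking the table rows whose Entrez identifier carried 1 of 10 listed symbols. All 10 were measured, each by 1 probe set, among 24704 genes: 2 ligands, 2 receptors and 6 binding proteins. The symbols were chosen by family, but with the log2 fold changes of this same comparison in view, so the members' differences between the groups are given as a description, and nothing is supported with them.

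All cells came from cultures in medium with serum, carried an adenovirus for 24 h and were then exposed to cholesterol at 10 µg/ml for 72 h before total RNA was taken for 8 single-colour arrays. In 4 arrays the virus was the one titled AdPl and the genotype field reads Control. In the other 4 the virus was AdN5 and the field reads NFAT5 overexpression, NFAT5 being the transcription factor that answers osmotic stress. Cholesterol and infection with an adenovirus were thus common to both groups, and no untreated or uninfected cells were analysed here. The labels name neither the strain and age of the mice nor the promoter that drives the transgene, and do not say whether replicates were separate cultures, so the p-values cover no more than the spread among these arrays, which may be technical.

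The Nfat5 transcript itself did not match the label of the AdN5 arrays. Its log2 level was 7.06, 7.22, 7.11 and 7.25 in the control arrays and 7.06, 6.95, 6.98 and 6.88 in the others, a log2 fold change of -0.19 ± 0.078 (SE; adjusted p = 0.360 in limma; exact two-sided permutation p = 0.0571). Whether this probe set reads the transgene was not tested. The AdN5 group is called the NFAT5-labelled arrays below, and every direction is drawn from the labels. Of 10 smooth muscle markers, 8 were above the median probe set of an array (3.76), among them Acta2, and the regulator Myocd and the filament gene Des were below it. Along the second principal component of all genes, control replicate 3 (14.2) and NFAT5-labelled replicate 4 (24.7) were the highest. The other arrays ran from 0.337 down to -19.5 in NFAT5-labelled replicate 3, so the arrays were spread at both ends. The number of arrays limits the precision.

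IGF1 and IGF2 are small secreted hormones of the insulin family that promote growth and survival. Both signal through the receptor tyrosine kinase IGF1R, whereas IGF2R, also the mannose 6-phosphate receptor, carries IGF2 and lysosomal enzymes to the lysosome. The binding proteins hold IGFs in the extracellular space, where they restrain or prolong their action until proteases release the hormone. In the arterial wall, smooth muscle cells make and respond to IGFs, and these set their proliferation, migration and survival.

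Among the members, the transcript of the binding protein IGFBP3 was lower in the NFAT5-labelled arrays, at 0.581 of its control level (95% interval 0.500 to 0.676), while the other 9 members differed by at most 0.18 on the log2 scale and did not pass the threshold. Calls were made in limma over all genes, with the Benjamini-Hochberg adjusted p below 0.05. By this rule 1 of 10 members was called, lower, and 0 higher, and the unadjusted p was below 0.05 for 1 of 10 members, beside 12.5% of all genes. Over all genes 0.777% were called, 0.413% as lower and 0.364% as higher. The groups did not overlap in 1 of 10 members and in 8.78% of all genes. The members' median log2 fold change was -0.02, beside 0.0042 over all genes. In these bulk samples, fewer cells of a type and less RNA per cell cannot be told apart.

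**Figure D1:**
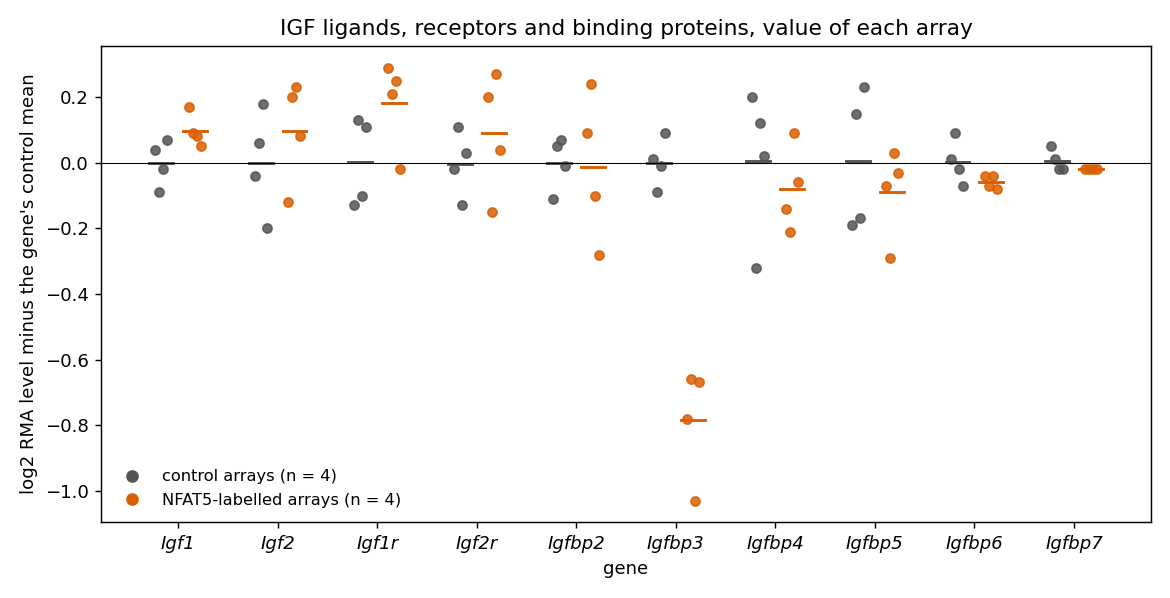
Value of every array for the 10 genes, as the log2 RMA level (the deposited expression scale) minus the mean of the gene's 4 control arrays; bars are group means. The NFAT5-labelled arrays (orange) of Igfbp3 all lie below its control arrays (grey), and the groups overlap in each of the other 9 genes.

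The ligand genes were close in both groups. Igf1, the ligand of most adult tissues, had log2 levels of 7.05, 6.92, 6.99 and 7.08 in the control arrays and of 7.18, 7.10, 7.09 and 7.06 in the NFAT5-labelled arrays. These ranges overlapped at 7.06 to 7.08, and the log2 fold change of 0.096 ± 0.072 (SE) had 95% bounds of -0.066 and 0.26 (adjusted p = 0.652 in limma). The interval thus leaves room for a rise to 1.20 times the control level but not for a larger one at this confidence. Igf2, the imprinted ligand of fetal growth, read 3.43, 3.53, 3.65 and 3.27 in the control arrays and 3.35, 3.67, 3.70 and 3.55 in the NFAT5-labelled arrays. All 8 values lay below the median probe set, where RMA compresses differences, so its log2 fold change of 0.096 ± 0.11 (SE; adjusted p = 0.791 in limma) says little about a change. H19, the imprinted non-coding RNA that lies beside Igf2, was dim as well, with a mean of 3.43 in the control arrays and 3.63 in the others, and its log2 fold change was 0.20 ± 0.17 (SE; adjusted p = 0.705 in limma). It turned to -0.0069 without control replicate 3 and NFAT5-labelled replicate 4.

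Both receptor genes were above the median probe set and did not pass. Igf1r, the signalling receptor, stood at 6.85, 7.11, 6.88 and 7.09 in the control arrays and at 7.27, 7.19, 7.23 and 6.96 in the NFAT5-labelled arrays. The first 3 NFAT5-labelled arrays exceeded every control array and replicate 4 lay among them. Its log2 fold change of 0.18 ± 0.099 (SE), the largest among the 9 members not called, had 95% bounds of -0.044 and 0.40 (adjusted p = 0.518 in limma; 0.359 to 0.725 with 1 array left out). Igf2r, the receptor that removes IGF2 from the cell surface, read 7.88, 8.01, 7.77 and 7.93 in the control arrays and 8.10, 7.75, 8.17 and 7.94 in the NFAT5-labelled arrays. The lowest and the highest of its 8 values were both NFAT5-labelled arrays, and the SD was 0.19 there against 0.10 in the control arrays (n = 4 each). Its log2 fold change was 0.095 ± 0.11 (SE; adjusted p = 0.783 in limma).

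Igfbp3 encodes the main IGF carrier of serum, which is also made locally by mesenchymal cells and can block access of IGFs to IGF1R. Its log2 levels were 9.81, 9.71, 9.79 and 9.89 in the control arrays and 9.02, 9.14, 8.77 and 9.13 in the NFAT5-labelled arrays. The highest NFAT5-labelled value (9.14) was thus below the lowest control value (9.71), and replicate 3 was the lowest of all. The group means were 9.80 ± 0.075 (SD, n = 4) and 9.02 ± 0.17 (SD, n = 4). The log2 fold change was -0.78 ± 0.097 (SE) and its upper 95% bound -0.56 (adjusted p = 0.00895 in limma). Its fold change was the 32nd lowest of the 102 genes called lower. Leaving out any single array kept the call in 8 of 8 fits, where the log2 fold change ran from -0.82 to -0.70 and the adjusted p from 0.0192 to 0.0421. Without both control replicate 3 and NFAT5-labelled replicate 4, a choice made after seeing the data, the log2 fold change was -0.83 and the adjusted p 0.0780.

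RefSeq promoter entries (mouse build GRCm38.p6) were matched for all 10 members, 14 entries in all, since Igf2 and Igfbp2 have several starts. The 250 bases before the start of Igfbp3 (chr11:7213924-7214173, minus strand) and of Igfbp5 (chr1:72874866-72875115, minus strand) are shown because the first belongs to the member called and the second holds the only match to the tonicity enhancer (TonE), the element bound by NFAT5. Sequences run 5′ to 3′ toward the start, and capitals mark TATATA in Igfbp3 and the TonE match in Igfbp5.

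Igfbp3: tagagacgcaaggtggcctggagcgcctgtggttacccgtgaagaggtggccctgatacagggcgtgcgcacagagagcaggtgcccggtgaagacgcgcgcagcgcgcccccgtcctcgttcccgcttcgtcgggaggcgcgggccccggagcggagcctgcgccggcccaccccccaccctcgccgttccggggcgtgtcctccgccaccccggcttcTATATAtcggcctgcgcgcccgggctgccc

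Igfbp5: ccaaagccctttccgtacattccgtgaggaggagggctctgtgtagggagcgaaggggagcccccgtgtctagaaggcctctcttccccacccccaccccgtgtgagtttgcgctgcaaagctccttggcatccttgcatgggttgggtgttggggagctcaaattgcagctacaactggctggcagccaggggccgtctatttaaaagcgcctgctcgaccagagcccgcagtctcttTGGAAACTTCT

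Motifs were searched on both strands of the full entries, which reach from 250 bases before to 50 after a start. A TonE match was found in 1 of 14 member entries, that of Igfbp5, and in 4.96% of the 32851 entries of all genes. Its core TGGAAA, which every TonE match contains, was found in 2 of 14 (Igfbp5 and Igf1) and in 21.4% of all entries. The window of Igfbp3 held no match to either, nor to the GC box GGGCGG, which 6 member entries and 35.7% of all entries held. It held TATATA from -30 to -25, searched after the sequence was seen, as did 5.67% of all entries. TATAAA was found in the entries of Igfbp4 and Igfbp6 and in 13.6% of all. The window of Igfbp3 was 73.2% G or C, and the RefSeq gene reaches further upstream than this start. A match is a description of letters in these windows, and the genome outside them was not analysed here.

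The other 5 binding protein genes did not pass the threshold, and their groups overlapped. Igfbp4, whose product restrains IGF action until it is cleaved by the protease PAPP-A, read 7.24, 6.72, 7.16 and 7.06 in the control arrays and 6.90, 6.83, 7.13 and 6.98 in the NFAT5-labelled arrays. All NFAT5-labelled values lay within the control range, and the log2 fold change was -0.083 ± 0.12 (SE; adjusted p = 0.848 in limma). Igfbp5, a matrix-bound protein that is a neighbour of Igfbp2 in the genome, read 3.52, 3.86, 3.54 and 3.94 in the control arrays and 3.64, 3.42, 3.74 and 3.68 in the NFAT5-labelled arrays. It was a dim gene with a mean below the median probe set, and its log2 fold change of -0.091 ± 0.12 (SE; adjusted p = 0.825 in limma) is limited by that signal. Igfbp2, which is found in many developing tissues, stood at 6.82, 6.98, 7.00 and 6.92 in the control arrays and at 7.02, 7.17, 6.83 and 6.65 in the NFAT5-labelled arrays. Its control arrays fell between the NFAT5-labelled extremes, whose SD was 0.23 against 0.081 (n = 4 each). The log2 fold change of -0.013 ± 0.12 (SE; adjusted p = 0.980 in limma) had no settled sign, being 0.0037, 0.0093, 0.017 and 0.077 without control replicate 2, control replicate 3, NFAT5-labelled replicate 3 or NFAT5-labelled replicate 4.

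Igfbp6, which prefers IGF2 over IGF1, was tight in both groups. It read 8.86, 8.94, 8.83 and 8.78 in the control arrays and 8.81, 8.78, 8.81 and 8.77 in the NFAT5-labelled arrays, a log2 fold change of -0.06 ± 0.069 (SE; adjusted p = 0.794 in limma). Its 95% bounds were -0.21 and 0.095. Igfbp7, a secreted relative that binds IGFs weakly, read 12.39, 12.35, 12.32 and 12.32 in the control arrays and 12.32 in each NFAT5-labelled array. It was the 18th to 20th brightest probe set on every array. As each rank holds nearly the same deposited value on every array, 5 arrays had the same value for Igfbp7. Its log2 fold change of -0.027 ± 0.065 (SE; adjusted p = 0.914 in limma) therefore compares ranks at the top of the scale, and the SD of 0.00061 in the NFAT5-labelled arrays is no measure of its biological spread.

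The 95% bounds of the other 9 members ran from -0.36 to 0.40, and the upper bound of Igfbp3 was -0.56. These bounds describe the values that were in view when the members were chosen and are no test of Igfbp3 against the others. Relative to the mean of the other 5 binding protein probe sets on the same array, Igfbp3 stood at 2.05, 1.94, 2.02 and 2.09 in the control arrays and at 1.29, 1.43, 1.01 and 1.46 in the NFAT5-labelled arrays. Only the change of this offset between the groups can be read, since probe sets differ in brightness. It changed by -0.73, from 2.02 ± 0.062 to 1.30 ± 0.21 (SD, n = 4), and was lower in 4 of 4 NFAT5-labelled arrays than in every control array. Igfbp3 was singled out after its values were seen, so this offset has no test.

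**Figure D2:**
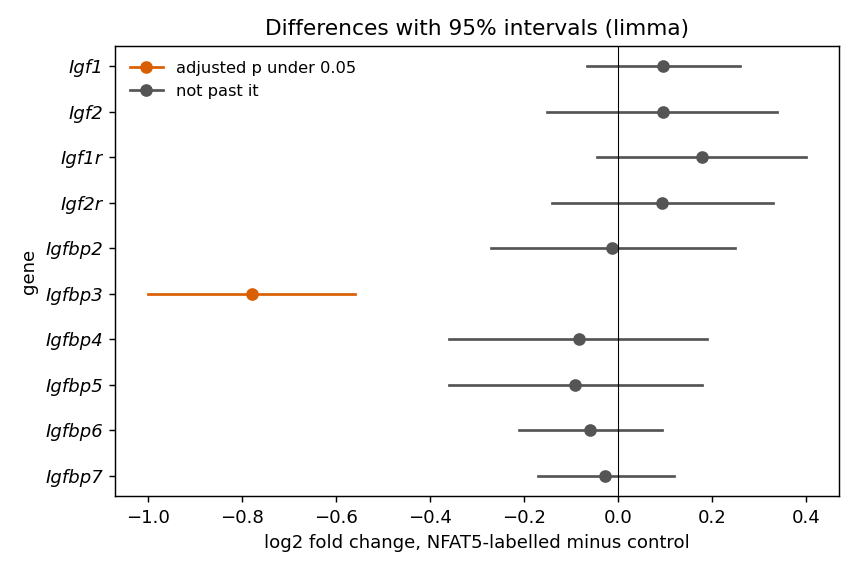
Log2 fold change of each member, NFAT5-labelled minus control, from limma on 4 against 4 arrays; points are estimates and lines 95% intervals. The interval of Igfbp3 (orange, upper bound -0.56) lies wholly below those of the other 9 genes, which reach from -0.36 to 0.40 and each include 0.

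Igfbp1, the insulin-regulated binding protein of liver and the neighbour of Igfbp3 in the genome, is no listed member. It was dim, with a control mean of 2.92 ± 0.28 and an NFAT5-labelled mean of 2.71 ± 0.24 (SD, n = 4 each), and its groups overlapped. Its log2 fold change was -0.22 ± 0.16 (SE; adjusted p = 0.642 in limma). Its 95% bounds were -0.57 and 0.14, at a signal where RMA compresses differences.

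The wider IGF axis was described with 12 lists of 133 measured genes outside the members. Of these, 1 was called higher, 3 lower and 129 did not pass (3.01% called, beside 0.777% of all genes and 1.42% of the 12266 genes above the median probe set). The groups were apart in 26 of the 133 (19.5%), beside 8.78% of all genes and 14.5% of the genes above the median probe set. Their median log2 fold change was -0.0056. The called genes were Ccn3, Htra4 and Stc2, which were lower, and Etv5, which was higher. Without both control replicate 3 and NFAT5-labelled replicate 4, 0 of the 133 were called. The lists were chosen with earlier results of these data known, so these shares describe them and are no test of an excess.

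**Figure D3:**
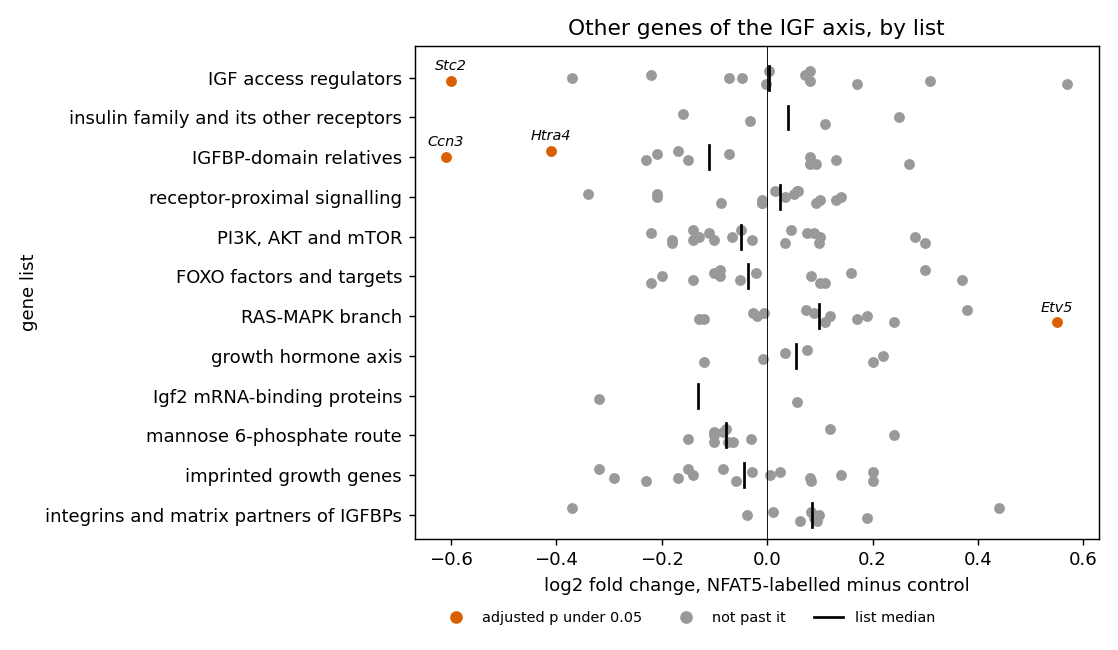
Log2 fold change of every measured gene of the 12 lists, NFAT5-labelled minus control; orange points passed an adjusted p of 0.05, grey points did not, and bars are list medians (a gene of several lists appears in each). Most genes lie near 0. Of the called genes, Stc2, Ccn3 and Htra4 lie at the left and Etv5 at the right. Stc1, which was not called, lies furthest right.

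Regulators of access to IGFs included a called gene on the pathway that frees IGF from its binding proteins. Stc2 encodes stanniocalcin-2, a secreted inhibitor of PAPP-A, and read 7.16, 7.04, 7.02 and 6.89 in the control arrays against 6.40, 6.55, 6.44 and 6.34 in the NFAT5-labelled arrays. It fell by 0.60 ± 0.085 (SE) on the log2 scale to 0.662 of its control level (adjusted p = 0.0170 in limma), and its groups did not overlap. It stayed called without control replicate 4 (adjusted p = 0.0367) or NFAT5-labelled replicate 2 (0.0308). Without control replicates 1 to 3 its adjusted p was 0.0664, 0.0637 and 0.0549, and without NFAT5-labelled replicates 1, 3 and 4 it was 0.0595, 0.0594 and 0.0523. The related Stc1, which also inhibits PAPP-A, was at 0.57 ± 0.14 with groups apart, without passing (adjusted p = 0.131 in limma). The mean of Stc1 went from a dim 3.76 to 4.33. Pappa itself, the protease, was at -0.048 ± 0.13 (SE; adjusted p = 0.925 in limma), with levels of 7.14 and 7.10. Mmp2, a matrix protease that can cleave binding proteins, was at 0.31 ± 0.069 with groups apart (adjusted p = 0.0947 in limma). Of the 13 genes of this list 1 was lower, 0 higher and 12 did not pass, with a median of 0.003. Over all genes 0.413% were called lower. Of the 13, 4 had an unadjusted p below 0.05 in limma, beside 12.5% of all genes. The groups were apart in 3 of 13, beside 8.78% of all genes.

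Among 12 relatives that carry an IGFBP domain 2 were lower, 0 higher and 10 did not pass, with a median of -0.11. Over all genes 0.413% were called lower. Of the 12, 5 had an unadjusted p below 0.05 in limma, beside 12.5% of all genes. The groups were apart in 6 of 12, beside 8.78% of all genes. Ccn3, a matricellular protein of the CCN family, read 11.60, 11.59, 11.53 and 11.63 in the control arrays and 10.98, 11.01, 10.87 and 11.05 in the NFAT5-labelled arrays. It fell by 0.61 ± 0.072 (SE) on the log2 scale to 0.655 (adjusted p = 0.00802 in limma) and stayed called in 8 of 8 fits that each omit 1 array, but not without both control replicate 3 and NFAT5-labelled replicate 4 (adjusted p = 0.0600). Its CCN relative Ccn1 was at the upper end with 0.27 ± 0.075 (SE; adjusted p = 0.178 in limma). Htra4, a serine protease, read 7.03, 6.88, 7.07 and 6.98 against 6.51, 6.58, 6.58 and 6.64, and fell by 0.41 ± 0.074 (SE) to 0.752 (adjusted p = 0.0427 in limma). Its call was lost with any of the 8 arrays left out (adjusted p from 0.0733 without control replicate 2 to 0.143 without control replicate 1).

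Downstream of the receptors, 1 of 14 genes of the RAS-MAPK branch was higher, 0 lower and 13 did not pass, with a median of 0.10 beside 0.0042 over all genes. Over all genes 0.364% were called higher. In this branch 4 of 14 had an unadjusted p below 0.05 in limma, beside 12.5% of all genes. The groups were apart in 5 of 14 genes of the branch, beside 8.78% of all genes. Etv5, a transcription factor induced by this branch, read 5.26, 5.19, 5.35 and 5.17 in the control arrays and 5.78, 5.72, 5.94 and 5.72 in the NFAT5-labelled arrays. It rose by 0.55 ± 0.082 (SE), to 1.46 times its control level (adjusted p = 0.0220 in limma). It stayed called without control replicate 3 (adjusted p = 0.0410) or NFAT5-labelled replicate 4 (0.0489). It missed the threshold without control replicates 1, 2 and 4 (0.0736, 0.0757 and 0.0874) and without NFAT5-labelled replicates 1 to 3 (0.0664, 0.0516 and 0.0613). Spry1, a feedback inhibitor of the branch, was at the lower end with -0.13 (adjusted p = 0.523 in limma). The mean of the 14 genes lay between 6.51 and 6.54 in the control arrays and between 6.59 and 6.78 in the NFAT5-labelled arrays.

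**Figure D4:**
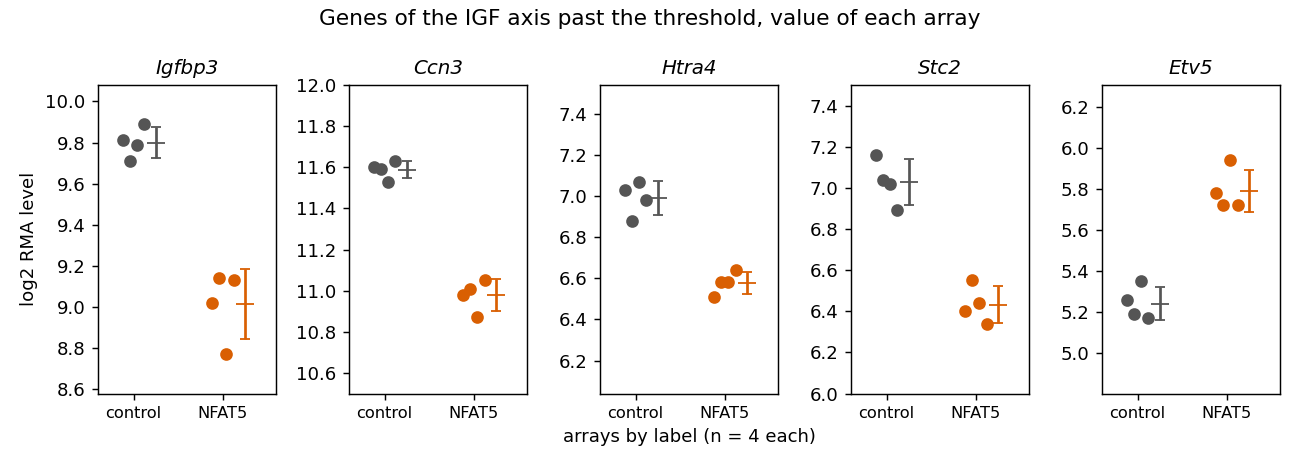
Log2 RMA level of the called genes of the IGF axis on every array, control (grey) and NFAT5-labelled (orange), with mean and SD beside the points (n = 4 each) and the same axis span in each panel. Igfbp3, Ccn3, Htra4 and Stc2 are lower and Etv5 is higher in all 4 NFAT5-labelled arrays.

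The other signalling lists held 0 called genes in limma. The unadjusted p was below 0.05 for 2 of 16 receptor-proximal genes, 4 of 19 genes of PI3K, AKT and mTOR, 3 of 14 FOXO factors and targets, 0 of 4 genes of the insulin family and 1 of 6 of the growth hormone axis, beside 12.5% of all genes. Of 16 receptor-proximal genes the ends were the adaptors Grb10 (0.14 ± 0.09) and Grb14 (-0.34 ± 0.11; adjusted p = 0.257 in limma), with a median of 0.023. Irs1, the docking protein of IGF1R, was at -0.087 ± 0.085 (adjusted p = 0.748 in limma). Of 19 PI3K, AKT and mTOR genes the ends were the kinase subunit Pik3cb (0.30 ± 0.14) and the translation repressor Eif4ebp1 (-0.22 ± 0.074; adjusted p = 0.260 in limma), with a median of -0.049. The list of FOXO factors, whose activity IGF signalling holds down, and their targets held 14 genes with a median of -0.037. It ran from Sesn1 (-0.22 ± 0.14) to Sesn3 (0.37 ± 0.087, adjusted p = 0.111 in limma). The receptor gene Insr was at 0.25 ± 0.12 (adjusted p = 0.451 in limma), the upper end of 4 genes of the insulin family and its other receptors (median 0.04), with Insrr at -0.16. The 6 genes of the growth hormone axis, which drives Igf1 in liver, had a median of 0.055 between Stat5b (-0.12) and Jak2 (0.22; adjusted p = 0.223 in limma).

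The IGF2 side and the matrix partners held 0 called genes in limma too. The unadjusted p was below 0.05 for 1 of 2 mRNA-binding protein genes, 1 of 11 genes of the mannose 6-phosphate route, 2 of 16 imprinted genes and 2 of 10 integrins and matrix partners, beside the same 12.5% of all genes. The mRNA-binding protein genes Igf2bp3 and Igf2bp1 were at -0.32 ± 0.082 (adjusted p = 0.143 in limma) and 0.057 ± 0.099, a median of -0.13 over 2 genes. Of 11 genes of the mannose 6-phosphate route, which shares Igf2r, 9 were below 0 and the median was -0.079, between Gga1 (-0.15) and Gga2 (0.24; adjusted p = 0.341 in limma). The 16 imprinted growth genes had a median of -0.044, from Meg3 (-0.32 ± 0.073; adjusted p = 0.105 in limma) to the dim Zim1 (0.20). Among 10 integrins and matrix partners of binding proteins, Itgav, the integrin chain alpha V, was at 0.44 ± 0.092 with groups apart (adjusted p = 0.0741 in limma), Vtn at -0.37 and the median at 0.086.

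As list means, fibroblast markers were lower and macrophage markers higher in every NFAT5-labelled array than in every control array, although 20 of their 24 genes did not pass singly. Over all genes 0.777% were called. The groups were apart in 6 of 12 fibroblast and 5 of 12 macrophage markers, beside 8.78% of all genes. The mean of 12 fibroblast or adventitial markers lay between 6.54 and 6.57 in the control arrays and between 6.16 and 6.31 in the NFAT5-labelled arrays, with 1 marker lower (Ly6c1, -1.24 ± 0.23; adjusted p = 0.0468 in limma), 0 higher, 11 not past the threshold, and Clec3b at the other end (0.061). That of 12 macrophage markers lay between 5.70 and 5.90 and between 6.10 and 6.24, with 3 higher (Adgre1 0.68, Laptm5 0.53 and Cd68 0.52), 0 lower, 9 not past the threshold, and Cd14 at the lower end (0.11). Of these 4 called markers, Adgre1 stayed called in 8 of 8 fits that each omit 1 array, and 0 stayed called without both control replicate 3 and NFAT5-labelled replicate 4 (adjusted p from 0.0774 to 0.187). Laptm5 was called only without control replicate 4 (adjusted p = 0.0387, otherwise up to 0.0916), Ly6c1 only without NFAT5-labelled replicate 1 (0.0395, otherwise up to 0.145) and Cd68 in none (0.0595 to 0.113). On these arrays 2 of the 12 fibroblast and 1 of the 12 macrophage markers had a mean below the median probe set. The called Ly6c1 was among these dim markers, with means of 4.04 in the control arrays and 2.79 in the NFAT5-labelled arrays. The part of either cell type in the difference of Igfbp3 was not tested.

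The mean of 10 smooth muscle markers overlapped between the groups (6.27 to 6.33 in the control arrays, 6.20 to 6.44 in the NFAT5-labelled arrays). Singly, 0 were called, with Acta2 (-0.30) and Cnn1 (0.33) at the ends. Acta2 was lower and Cnn1 higher with groups apart, which makes 2 of 10 markers, beside 8.78% of all genes. Endothelial means overlapped as well (4.27 to 4.43 against 4.23 to 4.43), with 0 of 10 called, Egfl7 at -0.31 and Cdh5 at 0.35. Chondrocyte means did too (3.56 to 3.76 against 3.55 to 3.74), with 0 of 8 called, Col11a1 at -0.42 and Matn1 at 0.21. Adipocyte means were at 3.33 to 3.54 against 3.29 to 3.36, with 0 of 6 called and Pparg at -0.36 and Adipoq at 0.21. The groups were apart in 2 of 10 endothelial, 1 of 8 chondrocyte and 0 of 6 adipocyte markers. The unadjusted p in limma was below 0.05 for 3 of 10 smooth muscle, 2 of 10 endothelial, 1 of 8 chondrocyte and 2 of 6 adipocyte markers, and for 6 of 12 fibroblast and 6 of 12 macrophage markers, beside 12.5% of all genes. Most chondrocyte and adipocyte markers were below the median probe set, 5 of 8 and 5 of 6.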

How the data were processed

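The deposited values are log2 expression. The submitters' processing notes name RMA, without a version. RMA corrects background, quantile normalises the arrays and summarises probes, so a shift of all genes in one direction cannot be seen and differences of dim genes are compressed. The sorted deposited values of the probe sets were identical on 6 arrays, and the largest deviation on any array was 0.00183. Each rank of a probe set thus holds nearly the same value on every array. The annotation build behind the probe sets is not given in the sources used here. The table's 25428 probe sets were named through the supplied probe table; 723 stayed unnamed, and the brightest probe set was taken for 1 symbol with several, leaving 24704 genes.

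Groups and replicate numbers came from the titles. Groups were compared in R 4.3.3 with limma 3.58.1 (functions lmFit and eBayes, two-sided, all 8 arrays, no covariates, Benjamini-Hochberg over all genes), tested on simulated data. Errors of fold changes are standard errors, those of means SDs. The smallest exact permutation p for 4 against 4 arrays is 0.0286. No genes were filtered. Members and lists were chosen with earlier results of these data known. The rule named all members, Nfat5, and in each list the called genes and both ends; Igfbp1, H19, Irs1, Mmp2 and Pappa were added after values were seen. Of 146 pathway entries, those not measured were not analysed here. Alternatives were a replicate block, other normalisations, filters on dim genes, other variance models, array weights, the mean over probe sets and leaving out arrays. Figures were drawn with matplotlib 3.10.9 in Python 3.11.15.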

Additional observations from a re-analysis of the deposited data

Results flagged for a closer look

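Of 110 groups of 4 arrays among the genes named, 6 held an array whose gap to the nearest of the others took up more of the group's range than Dixon's test allows, where chance gives about 1 in 20. Igfbp7 in NFAT5-labelled replicate 1 (12.32) was set apart only by digits beyond the second decimal, as the other 3 arrays shared a deposited value. Adipoq was highest in NFAT5-labelled replicate 1 (2.67, the others 2.34 to 2.39). Col11a1 was lowest in control replicate 3 (5.67, the others 5.93 to 5.98). Eif4ebp1 was highest in control replicate 3 (8.87, the others 8.74 to 8.75). Gga2 was lowest in NFAT5-labelled replicate 4 (6.64, the others 6.77 to 6.79). Zim1 was lowest in control replicate 4 (3.08, the others 3.23 to 3.25).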

How the results depend on the processing

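Igfbp3 kept its direction in all 17 alternatives and its call in all but the replicate block (-0.78, adjusted p = 0.0851 in limma) and the fit without control replicate 3 and NFAT5-labelled replicate 4, added after seeing the data. In both the count of called members was 0, and in every other alternative 1. All genes called were 192 and, with the replicate block, 14; among genes above the median 497; with eBayes in trend and robust mode 781; without both arrays 30; and with 1 array left out 56 to 88. The 4 called pathway genes became 0, 9, 13, 0 and 1 to 2 in the same order. The calls of Ccn3 (adjusted p = 0.0851), Stc2 (0.0980), Etv5 (0.0946), Htra4 (0.191), Adgre1 (0.0782), Cd68 (0.111), Laptm5 (0.138) and Ly6c1 (0.157) were also lost under the block. The labels do not say whether the replicate numbers pair the arrays. Same-numbered arrays correlated at 0.0547, 0.051, -0.0795 and -0.0473 in their deviations from the group means across genes. No pairing was visible in these values. Signs turned for Igfbp2 with array weights (0.016), without both arrays (0.099) and with 1 array left out (-0.099 to 0.077), for H19 (-0.0069) and Igf2bp1 (-0.0035) without both arrays, and with 1 array left out for Cd14 (-0.017 to 0.18) and Pappa (-0.14 to 0.045). Of 484 comparisons of single genes with an alternative, single arrays aside, 444 kept direction and side, 18 lost a call, 18 gained one and 4 turned. Fewer samples and fewer genes tested are built into these settings; further causes were not tested. Dim signal limits Igf2, Igfbp5, Igfbp1, H19 and Ly6c1.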
